A study of Mus musculus with 4 samples.

Results

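The orexin and melanin-concentrating hormone (MCH) spots were 318 of the 10942 spots kept from 4 mouse brain sections. They were chosen from their own counts: at least 500 UMIs (unique molecular identifiers, 1 for each captured RNA molecule), at least 20 UMIs of Pmch and Hcrt together, and fewer than 20 UMIs of Avp and Oxt together. Pmch encodes the precursor of MCH, Hcrt that of the orexins, and Avp and Oxt those of vasopressin and oxytocin. The levels of these 4 genes in the chosen spots are therefore a description and were not tested. A spot is a small printed area of a Visium slide that takes up RNA from several cells of the tissue above it, so the spots are patches of tissue and not single neurons.

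The study compared binge-like ethanol exposure in young and aged brain by spatial transcriptomics, with a single library per group. The Aged Ethanol library came from C57BL/6 females of 18 to 20 months given ethanol at 3 g/kg by stomach tube, and the Aged Vehicle library from females of the same age given water. The Young Ethanol and Young Vehicle libraries were the same pair at 3 to 4 months. All groups shared the schedule of 10 gavages on alternate days within 18 days, tissue collection 18 hours after the last, and coronal sections of 10 µm through the left hemisphere at bregma -2.0 to -2.2. The labels did not state how many animals stood behind each library, and positions of spots on the slide were not used here.

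Orexin neurons and MCH neurons are separate peptide cell groups that lie intermingled in the lateral hypothalamus and project through much of the brain. Orexins sustain wakefulness and reward seeking through the receptors Hcrtr1 and Hcrtr2, and orexin neurons also make dynorphin from the Pdyn precursor. MCH neurons are most active in sleep and promote feeding, and many of them carry the CART peptide, encoded by Cartpt. Both peptides are cut from larger precursors by proprotein convertases and stored with granins in dense-core vesicles.

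The 4 sections held very unequal numbers of these spots. The Aged Ethanol section held 129 among 2642 kept spots (4.88%, 95% interval 4.09 to 5.77) and the Aged Vehicle section 27 among 2703 (0.999%, 0.659 to 1.45). The Young Ethanol section held 161 among 2881 (5.59%, 4.78 to 6.49) and the Young Vehicle section 1 among 2716 (0.0368%, 0.000932 to 0.205). The intervals are exact Clopper-Pearson intervals and cover counting error only. With 1 section per group, the level at which a section was cut cannot be told apart from gavage or age, so these shares describe the sections. Because of its single spot, the Young Vehicle library entered none of the comparisons below.

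Pmch and Hcrt were split differently among the libraries. The median member spot held 19 Pmch UMIs in Aged Ethanol, 68 in Aged Vehicle and 38 in Young Ethanol, with the highest spots at 1042, 1432 and 4212. The median for Hcrt was 23 UMIs in Aged Ethanol, 0 in Aged Vehicle and 7 in Young Ethanol, and the highest spots held 983, 17 and 1186. The lone Young Vehicle spot had 69 Pmch UMIs and none of Hcrt. No Hcrt UMI was found in 3 of 129 Aged Ethanol members, 24 of 27 Aged Vehicle members and 8 of 161 Young Ethanol members, so the Aged Vehicle members were MCH spots almost without orexin RNA. Over whole sections, members or not, Hcrt gave 13341 UMIs in Aged Ethanol, 69 in Aged Vehicle, 15396 in Young Ethanol and 33 in Young Vehicle.

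**Figure D1:**
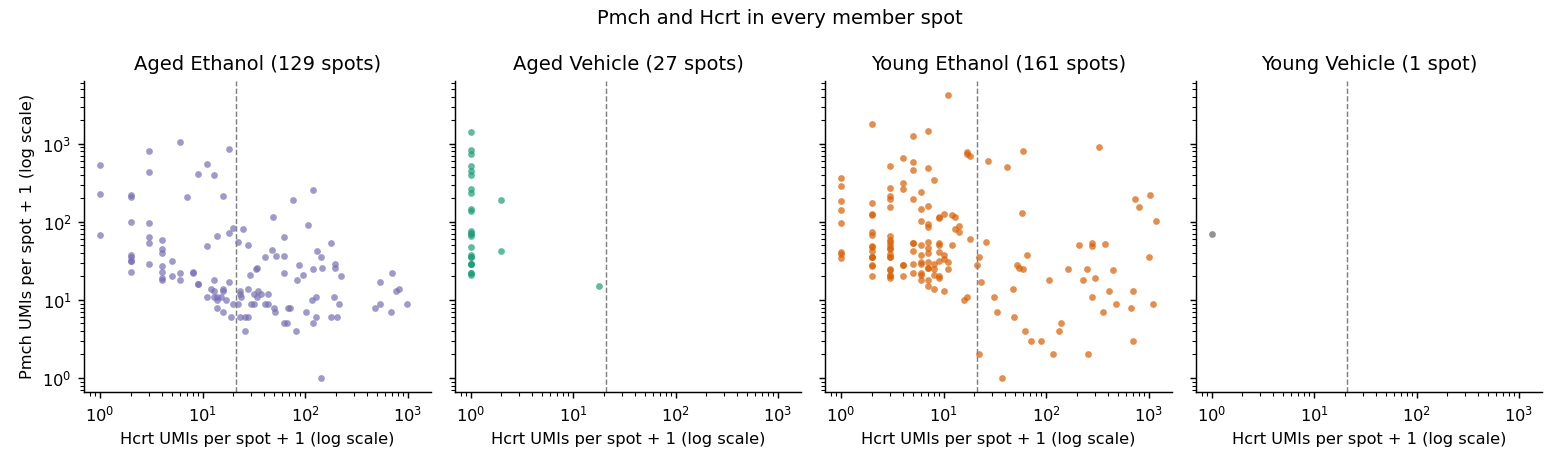
Pmch UMIs (vertical axis) against Hcrt UMIs (horizontal axis), both plus 1 on log scales, in each of the 318 member spots, with 1 panel for each library and 1 point for each spot. The dashed line marks the cutoff of 20 Hcrt UMIs; 70 Aged Ethanol and 49 Young Ethanol spots lie at or beyond it, and none of the Aged Vehicle or Young Vehicle spots.

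Most member spots were rich in 1 of the peptides and not in the other. At least 20 Pmch UMIs with fewer than 20 of Hcrt were found in 163 spots, the opposite in 69, both at 20 or more in 50, and neither alone in 36. The Aged Ethanol library had 44 spots with Hcrt alone at the cutoff among 129 and the Young Ethanol library 25 among 161. At the edge of the rule, 32 spots held 20 to 24 UMIs with a median of 15 for Pmch and 6.5 for Hcrt, and 52 spots held 15 to 19 with a median of 14 and 3.

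The members held most of the Pmch RNA in 3 sections and most of the Hcrt RNA in the 2 ethanol sections. They carried 83.1% of all Pmch UMIs of the Aged Ethanol section, 89.0% of the Aged Vehicle section and 93.3% of the Young Ethanol section. For Hcrt the shares were 81.6% in Aged Ethanol, 27.5% in Aged Vehicle and 94.9% in Young Ethanol. Cortical and hippocampal spots, taken as those with at least 20 UMIs of the glutamate transporter gene Slc17a7, should lack both genes and show the level of free RNA. Of these, 10.9%, 5.26% and 22.6% had a Pmch UMI in Aged Ethanol, Aged Vehicle and Young Ethanol, but the highest count in any of them was 3, 2 and 4. Hcrt was present in 8.60%, 2.77% and 12.9% of them, with highest counts of 2, 2 and 3. Median depth was 30594, 27279 and 30955 UMIs in those spots and 14149, 12705 and 18034 in members.

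Libraries also differed in RNA make-up. Mitochondrially encoded genes took 15.8% of member UMIs in Aged Ethanol, 14.7% in Aged Vehicle and 14.5% in Young Ethanol. Lars2, Gm42418 and AY036118, 3 transcripts whose counts often come from ribosomal RNA, together took 0.558%, 0.202% and 0.391% of member UMIs in the same libraries. Member spots of different libraries shared no barcode.

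Within the members, spots rich in orexin RNA had more Lhx9, C1ql3, Pcsk1, Pdyn, Nts and Scg2 RNA and less Cartpt RNA than the other members. Hcrt-rich spots (at least 20 Hcrt UMIs) numbered 70 in Aged Ethanol and 49 in Young Ethanol and were set against the 59 and 112 other members of those libraries, with UMIs summed per library and class and the library as a block. In edgeR's quasi-likelihood test 20 of 9427 genes rose at an adjusted p below 0.05 and at least 2-fold (0.212% of genes tested), and 22 fell (0.233%). Without adjustment, 763 genes had a p below 0.05. Only the 2 ethanol libraries had both classes, which left 1 residual degree of freedom, and the p-values measure the spread between 2 sections of different age. The fewer-Hcrt spots hold Pmch by the rule, so a fall in the Hcrt-rich spots cannot be told apart from a higher level beside Pmch.

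The transcription factor gene Lhx9, which in mouse marks orexin neurons, had the highest log2 change, but it rested on 1 UMI in the other members of Aged Ethanol and 4 in those of Young Ethanol, so its size is uncertain. It stood at 16.0 CPM (the gene's UMIs scaled to the usual per-million total of the class's UMIs) in Hcrt-rich spots against 1.21 in the others in Aged Ethanol, and at 33.1 against 1.72 in Young Ethanol, a log2 fold change of 4.14 (edgeR adjusted p = 1.0e-10). C1ql3, which encodes a secreted C1q-like protein of synapses, rose as far: 36.2 against 4.85 CPM in Aged Ethanol and 58.5 against 2.59 CPM in Young Ethanol (log2 4.00, edgeR adjusted p = 4.9e-19). Both genes were higher in the Hcrt-rich spots of both libraries, with per-library log2 ratios of 3.72 to 4.26 for Lhx9 and 2.90 to 4.50 for C1ql3.

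Of 15 tested genes in a list of 23 other hypothalamic peptides 3 rose in Hcrt-rich spots (Pdyn, Nts and Tac2), 2 fell and 10 did not pass, and the list's median log2 change was -0.34, against 0.0016 over all genes. Pdyn, the dynorphin precursor, was at 141 CPM in Hcrt-rich spots against 61.8 CPM in the other members in Aged Ethanol, and at 199.7 against 55.2 CPM in Young Ethanol (log2 1.64, edgeR adjusted p = 4.9e-19). Nts, which encodes neurotensin, rose by 1.84 on the log2 scale, to 164 CPM in Hcrt-rich spots against 53.3 in the others of Aged Ethanol and 67.4 against 15.9 in Young Ethanol. Tac2, the neurokinin B precursor, rose by 1.27. The 2 that fell were Cartpt and Adcyap1, the precursor of PACAP, at 48.0 against 88.4 CPM in Aged Ethanol and 22.9 against 60.3 CPM in Young Ethanol.

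The machinery that cuts and packs peptides changed in 3 of its 14 genes, all upward. Pcsk1, the proprotein convertase PC1/3, stood at 87.5 CPM in Hcrt-rich spots against 24.2 in Aged Ethanol and at 75.05 against 12.9 in Young Ethanol (log2 2.28, per-library ratios 1.85 to 2.54, edgeR adjusted p = 6.1e-17). Scg2, which encodes the granin secretogranin II, was at 1298 against 609 CPM in Aged Ethanol and 1486 against 483 CPM in Young Ethanol (log2 1.40). Vgf, another granin, rose by 1.24. The second convertase gene did not pass: Pcsk2 had a log2 change of -0.44 with an edgeR adjusted p of 0.19, and the carboxypeptidase gene Cpe of -0.25 with 0.21. The median over the 14 genes was 0.11.

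Of the 8 genes listed as orexin neuron markers 4 rose, namely Lhx9, Pdyn, Scg2 and Plagl1, and none fell, with a list median of 1.18. Plagl1, an imprinted zinc-finger factor gene, rose by 1.58 and Dlk1, which encodes an imprinted Notch-related membrane protein, by 1.42. With Asb4 (1.24) they were the 3 of 21 imprinted genes that passed both limits. Trhr, the receptor of thyrotropin-releasing hormone, stood at 21.04 against 6.06 CPM in Aged Ethanol and 20.4 against 6.03 CPM in Young Ethanol (log2 1.80, edgeR adjusted p = 0.0094). Csta2 (2.26), Shisa6 (1.84) and Igfbp3, an insulin-like growth factor binding protein (1.54), completed the 10 genes with the greatest rise. Among MCH neuron markers 1 of 8 tested genes fell and none rose, with a median of -0.61. That gene was Cartpt, at 333 CPM in Hcrt-rich spots against 540.4 in Aged Ethanol and 244 against 901 in Young Ethanol (log2 -1.24, edgeR adjusted p = 8.1e-24).

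Of 6 tested genes in a list of 12 markers of the tuberal nuclei 2 fell in Hcrt-rich spots (Nr5a1 and Fezf1), 1 rose (Tac2) and 3 did not pass (Pomc, Npy and Ghrh), with a median of -0.36. Nr5a1 and Fezf1, transcription factor genes of the ventromedial hypothalamic nucleus, had log2 changes of -1.75 and -1.17. Nr5a1 stood at 14.3 against 25.4 CPM in Aged Ethanol and 2.54 against 36.6 in Young Ethanol. Th, the tyrosine hydroxylase of dopamine synthesis, stood at 38.7 against 39.98 CPM in Aged Ethanol and 25.4 against 99.1 in Young Ethanol, so its fall (log2 -1.02) lay almost wholly in the young library. Nrgn, a calmodulin-binding protein gene of forebrain neurons, had a log2 change of -1.02. The greatest falls were those of Lamb3 (-2.13), Fam81a (-2.10), the phosphatase gene Ptpn3 (-1.90) and the vesicular zinc transporter gene Slc30a3 (-1.84). In the glial lists none of 8 oligodendrocyte, 11 astrocyte or 12 microglial genes passed, with medians of 0.22, -0.02 and 0.03. Slc17a6, the vesicular glutamate transporter of hypothalamic neurons, had a log2 change of -0.26 (edgeR adjusted p = 0.73) and Gad1, an enzyme of GABA synthesis, of -0.04 (edgeR adjusted p = 0.99). Median depth of Hcrt-rich and other spots was 16283.5 and 11969 UMIs in Aged Ethanol, and 15902 and 20664.5 in Young Ethanol, so depth did not run the same way in both libraries. DESeq2's Wald test called 7 genes higher and 0 lower, with 28 and 21 at an unadjusted p below 0.05, so no fall was called by both tools; Lhx9, Trhr and Plagl1 were among the rises it did not call. C1ql3, Dlk1, Nts, Pcsk1, Pdyn, Scg2 and Vgf rose under each alternative run, and Cartpt, Adcyap1, Th and Fezf1 no longer passed at a member cutoff of 10 UMIs.

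**Figure D2:**
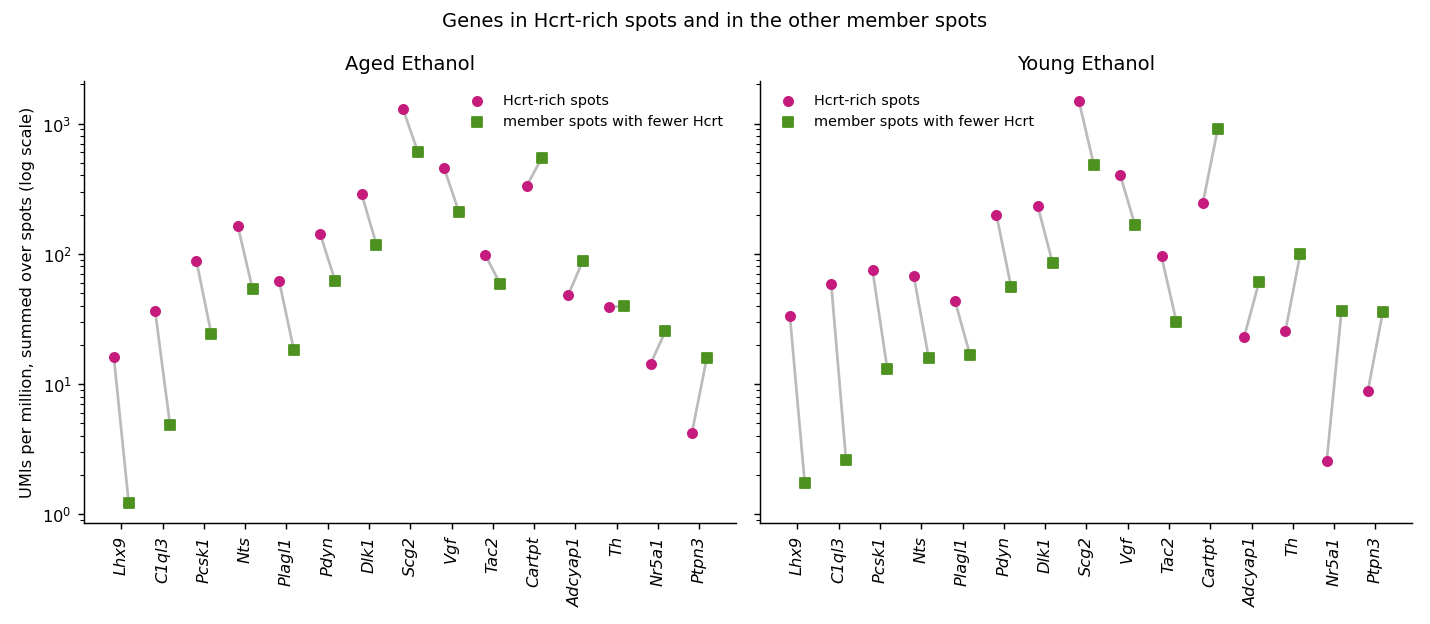
Levels in CPM (log scale) of 15 genes summed over Hcrt-rich member spots (circles) and over member spots with fewer Hcrt UMIs (squares), joined by a line for each gene, in Aged Ethanol (left) and Young Ethanol (right). The circles lie above the squares for Lhx9 to Tac2 and below them for Cartpt to Ptpn3, with Th nearly level in Aged Ethanol.

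The same genes were followed over steps of Hcrt without a test. At 0 to 1, 2 to 19, 20 to 99 and 100 or more Hcrt UMIs, Aged Ethanol had 11, 48, 42 and 28 spots and Young Ethanol 23, 89, 21 and 28. Scg2 stood at 600.2, 611, 847 and 1925 CPM over these steps in Aged Ethanol, and at 479.6, 483, 691 and 1989.7 in Young Ethanol. Pdyn stood at 62.7, 61.7, 76.6 and 229.6 CPM in Aged Ethanol and at 79.5, 49.9, 75.4 and 279 in Young Ethanol. In both libraries the 2 genes were highest at the top step, and Scg2 hardly differed between the 2 lowest steps. Pcsk1 stood at 8.96, 26.6, 50.6 and 139 CPM in Aged Ethanol and 14.5, 12.6, 36.0 and 99.8 in Young Ethanol. Cartpt ran the other way, at 851, 492, 431 and 197 CPM in Aged Ethanol and 935, 894, 423 and 131 in Young Ethanol. A lower level over a step may come from fewer cells of a type or from less RNA per cell, which spot counts cannot tell apart.

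**Figure D3:**
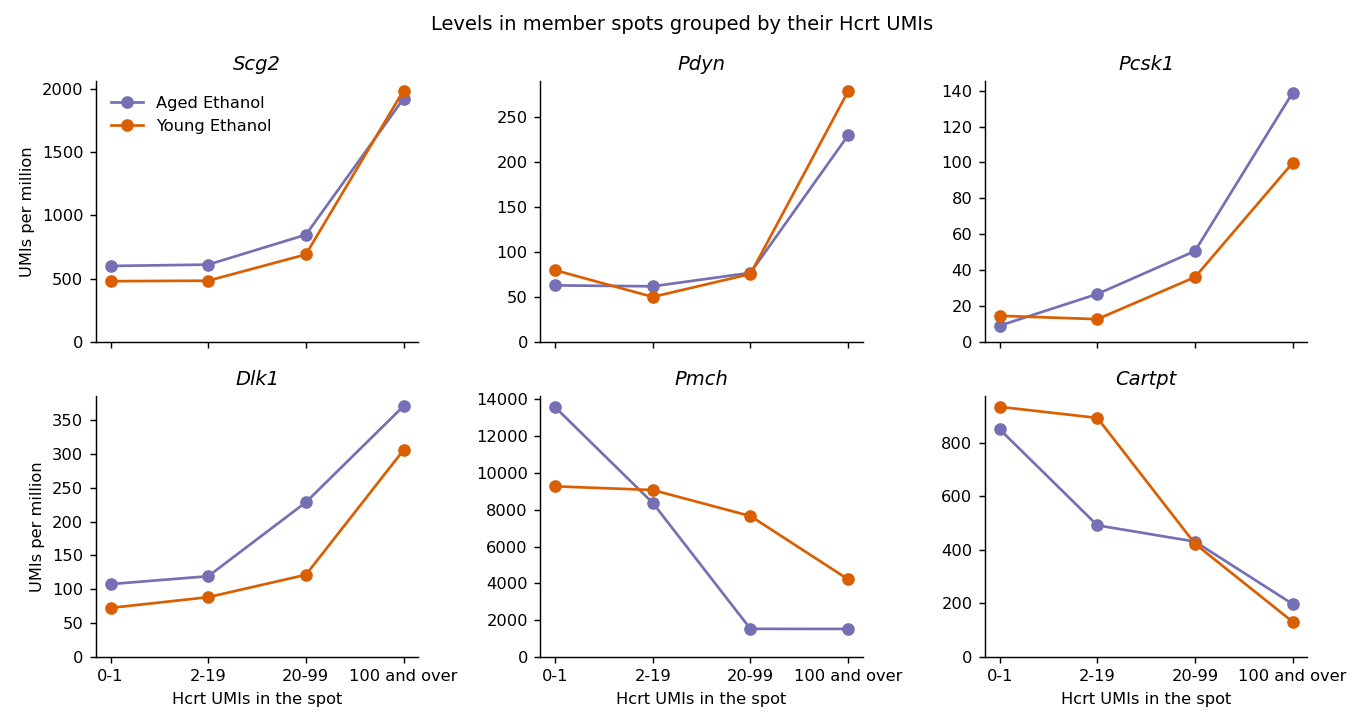
Levels in CPM (vertical axes, from 0) of 6 genes summed over member spots grouped by their Hcrt UMIs (horizontal axis, 4 steps), with 1 line for Aged Ethanol and 1 for Young Ethanol. Scg2, Pdyn, Pcsk1 and Dlk1 are highest at 100 or more Hcrt UMIs, and Cartpt is lowest there; Pmch is bound to be high at the lowest step by the rule that chose the spots.

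Over steps of Pmch, Cartpt stood out in all 3 libraries. At 20 to 39, 40 to 99 and 100 or more Pmch UMIs it reached 319, 199 and 1688 CPM in Aged Ethanol, 589.7, 879.8 and 3934 in Aged Vehicle, and 154, 216 and 2060.4 in Young Ethanol. Tacr3, the neurokinin 3 receptor, stood at 9.51, 9.24 and 87.0 CPM in Aged Ethanol, 0, 11.7 and 56.7 in Aged Vehicle and 5.76, 13.2 and 52.3 in Young Ethanol, on 17 UMIs or fewer in the aged libraries. Pcsk2, the convertase that did not rise with Hcrt, was highest at the top step of Pmch: 112, 152 and 353 CPM in Aged Ethanol, 95.4, 141 and 404 in Aged Vehicle and 168, 132 and 293 in Young Ethanol. The top step held 16, 11 and 45 spots. These steps were not tested. Parpbp, a listed MCH marker, overlaps Pmch in the annotation (GRCm38.p6, chromosome 10, Pmch at 88091072 to 88092374 and Parpbp at 88091398 to 88146969), so their reads may be shared and its level is uncertain. Hcrt lies on chromosome 11 at 100761693 to 100762931.

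Members were next set against comparison spots with a similar sum of 5 hypothalamic genes (Baiap3, Gabrq, Irs4, Arhgap36 and Hap1) and fewer than 5 UMIs of Pmch and Hcrt. There were 122 such spots in Aged Ethanol, 302 in Aged Vehicle and 144 in Young Ethanol. In the edgeR quasi-likelihood test with the library as a block, 179 of 11696 genes were higher in members (1.53%) and 302 were lower (2.58%), at an adjusted p below 0.05 and at least 2-fold, and 3092 had an unadjusted p below 0.05. The comparison spots carried transcripts of the cortex: Tbr1, a transcription factor gene of cortical neurons, stood at 2.48, 2.85 and 1.29 CPM in members of Aged Ethanol, Aged Vehicle and Young Ethanol, against 30.9, 12.5 and 22.5 CPM in comparison spots. When comparison spots with any UMI of Slc17a7, Tbr1, Neurod2 or Bcl11b were left out, an alternative chosen after seeing the data in which these 4 genes were not tested, 20, 138 and 36 spots remained, and 7 of 9533 genes were higher and 28 lower. Of the 117 higher genes still tested, 112 had the same sign. The filtered fit used the same members and a part of the same comparison spots, so like signs were favoured in advance and are no separate support. The median log2 change of the higher genes was 0.682, against 1.24 with all comparison spots. The filtered spots still held forebrain transcripts, since Nrgn had a log2 change of -1.73 and Lamp5, a gene of cortical neurons named after its values were seen, of -2.34. Transcripts whose counts often come from ribosomal RNA differed as well, by less than 2-fold: Lars2 had 0.07 against all comparison spots and -0.83 against the filtered ones (edgeR adjusted p = 0.00062), and Gm42418 -0.10 and -0.78 (edgeR adjusted p = 0.00021). Filtered comparison spots held Lars2 at 1096 CPM in Aged Ethanol, 464 CPM in Aged Vehicle and 478 CPM in Young Ethanol, and its part in the filtered changes was not tested. Fewer spots also left fewer UMIs behind each value. The counts thus depended on the choice of comparison spots. With all comparison spots, 109 genes were higher when the Aged Ethanol library was left out, and DESeq2's Wald test called 78 higher.

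The 7 genes that were higher against both sets of comparison spots were Cartpt, Gal, Sncg, Slc18a2, Dlx1, Gfra2 and Anxa5, of which Gfra2 and Anxa5 were named after their values were seen. Cartpt stood at 418, 1992 and 735 CPM in members of Aged Ethanol, Aged Vehicle and Young Ethanol, against 88.4, 258 and 79.9 CPM in comparison spots (log2 2.88, edgeR adjusted p = 3.1e-18). Against the filtered comparison spots its log2 change was 3.00 (edgeR adjusted p = 3.1e-09). Gal, the galanin precursor, stood at 122, 131 and 96.2 CPM in members against 11.2, 29.7 and 10.9 CPM in comparison spots, with log2 changes of 2.89 against all and 1.53 against the filtered spots (edgeR adjusted p = 1.5e-13 and 0.0021). Sncg, which encodes gamma-synuclein, stood at 76.5, 191 and 98.2 CPM in members against 19.7, 29.3 and 18.996 CPM (log2 2.41 and 1.71). Slc18a2, the vesicular monoamine transporter, had log2 changes of 2.72 and 1.92 in the same 2 fits (edgeR adjusted p = 1.2e-07 and 0.024). Dlx1, a transcription factor gene of GABA neurons, had 1.499 and 2.07, Gfra2, a receptor of the GDNF family, 1.10 and 1.28, and the annexin gene Anxa5 1.26 and 1.02. In the filtered spots of Aged Ethanol, Aged Vehicle and Young Ethanol, Dlx1 rested on 2, 11 and 2 UMIs and Slc18a2 on 2, 31 and 1. The size of their filtered changes is therefore uncertain. For Cartpt, Gal and Sncg the member level exceeded the comparison level in each of the 3 libraries.

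Other genes rose against all comparison spots but missed the test against the filtered ones. Th had log2 changes of 2.69 and 1.54 (edgeR adjusted p = 4.8e-10 and 0.10). The thyrotropin-releasing hormone gene Trh had 2.33 and 0.84, and its members stood at 224, 31.4 and 132 CPM in Aged Ethanol, Aged Vehicle and Young Ethanol against 7.29, 9.57 and 58.0 CPM in comparison spots. Nkx2-1, a patterning factor gene of the ventral hypothalamus, had 2.44 and 1.26, and Asb4, an imprinted ubiquitin ligase adaptor gene of the hypothalamus, 2.61 and 1.20. Asb4 in the Aged Ethanol comparison spots rested on 1 UMI (0.429 CPM). Cbln1, a synapse organiser gene, stood at 165, 45.7 and 147 CPM in members against 17.6, 45.1 and 24.98 CPM in comparison spots, so it was level in Aged Vehicle, and had log2 changes of 2.26 and 0.76. The unnamed transcript Gm2694 had 2.17 and 1.10.

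**Figure D4:**
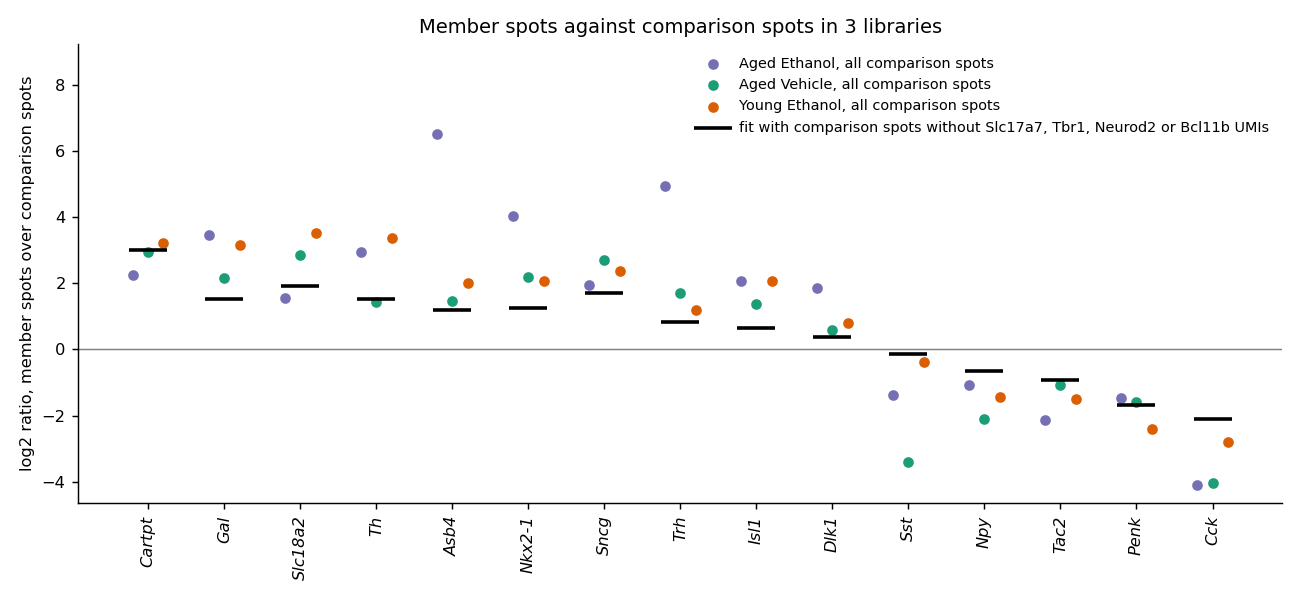
Log2 ratio of the level in member spots to that in comparison spots (vertical axis) for 15 genes, with 1 point for each of the Aged Ethanol, Aged Vehicle and Young Ethanol libraries and a bar for the fit against comparison spots without Slc17a7, Tbr1, Neurod2 or Bcl11b UMIs. The bar lies among the points for Cartpt, Slc18a2, Th and Penk, below all 3 points for Gal, Asb4, Nkx2-1, Sncg, Trh, Isl1 and Dlk1, and above all 3 for Sst, Npy, Tac2 and Cck.

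By list, 5 of the 19 tested hypothalamic peptide genes were higher in members (Cartpt, Gal, Trh, Pomc and Ghrh) and 8 were lower, with a median of -0.14 against 0.0016 over all genes. Pomc, the precursor of alpha-MSH, and Ghrh, that of growth hormone releasing hormone, changed sign against the filtered spots (log2 1.03 and -0.52, 1.72 and -0.21). In Aged Vehicle, Pomc was at 34.2 CPM in members against 99.8 CPM in comparison spots. Penk, the enkephalin precursor, fell in both fits (-1.85 and -1.68, edgeR adjusted p = 9.9e-13 and 0.026). It stood at 159, 126 and 91.4 CPM in members of Aged Ethanol, Aged Vehicle and Young Ethanol, against 439, 379 and 482 CPM in all comparison spots. The filtered spots held 157, 175 and 723 CPM, so the filtered fall lay mostly in Young Ethanol and Penk was level in Aged Ethanol. Cck, the cholecystokinin precursor, fell in both as well (-3.36 and -2.11, edgeR adjusted p = 1.2e-16 and 0.00016), whereas Sst had -1.19 against all and -0.15 against the filtered spots (filtered edgeR adjusted p = 0.94). Of 8 orexin markers 1 rose, the regulatory factor gene Rfx4 (1.39, and 0.83 against the filtered spots, edgeR adjusted p = 0.56). Of 8 tested MCH markers 3 rose, Cartpt, Otp (1.18, and 0.07 filtered) and Tacr3 (1.01, and 1.01 filtered). Otp and Tacr3 did not pass against the filtered spots (edgeR adjusted p = 0.98 and 0.53). List medians were 0.27 and 0.55. Several of these calls rested on 1 library: without Aged Ethanol the log2 change was 0.046 for Pomc and 0.544 for Otp, without Aged Vehicle 0.773 for Tacr3 and -0.849 for Sst, and without Young Ethanol -0.090 for Ghrh, and none passed there.

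None of 14 peptide-processing genes passed the 2-fold limit in members against comparison spots (median 0.30), although Resp18, a protein of dense-core vesicles, had a log2 change of 0.73 with an edgeR adjusted p of 1.8e-07 (0.50 and 0.060 against the filtered spots). Feeding and arousal receptors gave 1 higher and 2 lower genes among 15 tested of 23. The higher one was the neurotensin receptor Ntsr1 (1.10, and 1.43 filtered, where it did not pass, edgeR adjusted p = 0.41). The lower ones were Crhr1 (-1.47, not tested filtered) and Tacr1 (-1.37, and -1.56 filtered, edgeR adjusted p = 0.35). Among the 10 named genes with the lowest log2 changes against all comparison spots were Cyp26b1 (-6.72), which encodes an enzyme that degrades retinoic acid, and Col6a1 (-4.69). Neurod2 (-4.32) and Tbr1 (-3.70), factor genes of cortical-type glutamate neurons, were also among them. None of Cyp26b1, Neurod2 and Tbr1 was tested against the filtered spots. The fitted fold of Cyp26b1 rests on 1 member UMI and is no bound. Of 22 tested hypothalamic transcription factor genes 8 were higher and 2 lower, with a median of 0.27. Among the higher ones were Nkx2-1, Isl1 (1.91, and 0.65 filtered) and Hmx2 (3.91, not tested filtered). Hmx2 had no UMI in the comparison spots of Aged Ethanol and Young Ethanol, so the size of its change is uncertain. The lower ones were Meis2 (-1.42) and Foxp2 (-1.08). Against the filtered spots Meis2 had -0.25 and Foxp2 -1.53 (edgeR adjusted p = 0.89 and 0.12). Immediate early genes fell in 5 of 16 (Egr1, Egr3, Egr4, Junb and Arc, median -0.51) against all comparison spots. Against the filtered spots Egr1, Egr3 and Junb had 0.01, -1.64 and -0.98, compared with -1.27, -2.61 and -1.35 against all, and none of the 3 passed there (edgeR adjusted p = 1.0, 0.20 and 0.48). Egr4 and Arc were not tested there. Without Aged Ethanol, Ntsr1 (1.004) and Tacr1 (-1.280) no longer passed, nor did Ntsr1 without Aged Vehicle (0.999). Without Young Ethanol, Crhr1 (-1.009), Tacr1 (-1.360), Foxp2 (-0.932) and Egr1 (-0.971) no longer passed.

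Summed markers of oligodendrocytes and astrocytes were higher in members than in comparison spots. Summed over 8 oligodendrocyte genes, members stood at 6764, 4582 and 5896 CPM in Aged Ethanol, Aged Vehicle and Young Ethanol, against 3627, 4025 and 4069.6 CPM in comparison spots. None of the 8 passed the test, and their median was 0.59. The sums of 11 astrocyte genes were 2289, 2648 and 1939.9 CPM against 1723, 2066 and 1719 CPM, with 2 of 11 genes higher, the GABA transporter Slc6a11 (1.296) and Agt (1.21), whose changes against the filtered spots were 0.29 and 0.28. Their part in the differences above was not tested.

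Set against every other spot of the same section, the members had 610 of 15485 genes higher (3.94%) and 975 lower (6.3%) in the edgeR test. Cortical and hippocampal markers were lower in members in 6 of 8 genes and thalamic markers in 7 of 8. Imprinted genes were higher in 13 of 21 and lower in none, with a median of 1.57 against -0.031 over all genes. Against the comparison spots 2 of 21 were higher, Dlk1 and Asb4, with a median of 0.40. Neither passed against the filtered comparison spots (log2 0.37 and 1.20, edgeR adjusted p = 0.55 and 0.41). Dlk1 also no longer passed against all comparison spots without Aged Ethanol (log2 0.771). Dlk1 stood at 218, 143 and 123 CPM in members of Aged Ethanol, Aged Vehicle and Young Ethanol, against 14.6, 21.1 and 11.9 CPM in the rest, and Magel2, whose human counterpart lies in the Prader-Willi region, at 34.8, 57.1 and 24.5 against 4.08, 6.53 and 2.70 CPM. The imprinted gene Nnat was at 1074, 1318 and 889.7 CPM in members against 252, 386 and 219.6 CPM in the rest.

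Receptors for feeding and arousal signals were higher in 8 and lower in 1 of 20 tested. Hcrtr2, an orexin receptor, stood at 3.97, 17.1 and 5.79 CPM in members of Aged Ethanol, Aged Vehicle and Young Ethanol against 1.34, 1.93 and 1.56 CPM in the rest (log2 2.08, edgeR adjusted p = 6.9e-06). Hcrtr1, the other one, stood at 10.9, 0 and 10.3 CPM against 2.54, 3.11 and 2.66 CPM, and its 0 in Aged Vehicle allows up to 8.56 CPM (3 UMIs). Glp1r (2.74), Mc3r (2.64), Oprk1 (1.93) and Ntsr1 (2.13), receptors of glucagon-like peptide 1, melanocortins, dynorphin and neurotensin, were also higher. Hypothalamic transcription factor genes were higher in 18 and lower in 2 of 31 tested, led by Hmx2 (5.54), Nkx2-4 (4.37) and Nr5a1 (4.33), although Nr5a1 had no UMI in Aged Vehicle members. Immediate early genes were lower in 10 of 17 and higher in none, among them Egr3 (-3.89) and Arc (-3.10). Of the receptors named here, only Ntsr1 was higher against all comparison spots too. It did not pass against the filtered ones (edgeR adjusted p = 0.41), nor without Aged Ethanol or without Aged Vehicle. Hcrtr2, Hcrtr1 and Oprk1 had log2 changes of 1.03, 0.42 and 0.73 there (edgeR adjusted p = 0.12, 0.49 and 0.069). In Aged Vehicle members, where 3 UMIs make 8.56 CPM, Hcrtr2 rested on few UMIs.

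Between libraries there was 1 section per group and no test. Ratios of summed CPM are given with exact conditional binomial 95% intervals that cover counting error only, and for many genes beside the same ratio in the comparison spots or in members without the Hcrt-rich spots. Aged Ethanol members against Aged Vehicle members differed by 2-fold or more, where the richer library gave no fewer than 50 UMIs, in 282 of 5897 genes upward (4.78%) and in 28 downward (0.475%). Aged Vehicle members summed to 350489 UMIs against 2013483 in Aged Ethanol members, and 238 of the 282 upward genes had fewer than 10 UMIs in Aged Vehicle, so counting error alone is wide for them. The minimum of 50 UMIs also stands for 24.8 CPM in Aged Ethanol but 143 CPM in Aged Vehicle, so a gene of modest level could pass it only through Aged Ethanol, which by itself favours upward genes. With 1 minimum for both directions, a mean of the 2 levels of at least 143 CPM (chosen after seeing the data), 7 of 1065 genes were past 2-fold upward and 3 downward. Of the 282 and 28 genes, 9 and 3 were past 2-fold in the comparison spots too, where 279 and 28 reached 50 UMIs. With the same minimum, 49 and 6 were past 2-fold without the Hcrt-rich spots. Aged Ethanol members then summed to only 825340 UMIs, so fewer genes could reach 50 UMIs, and how many did was not counted. Gavage, level of the section and the near absence of orexin spots in Aged Vehicle cannot be told apart here.

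Cartpt was the gene furthest down, at 418 CPM in Aged Ethanol members against 1992 CPM in Aged Vehicle members, a ratio of 0.210 (0.190 to 0.232). The ratio was 0.271 without Hcrt-rich spots and 0.343 in comparison spots, the same direction in all 3. Paqr6, Nkain4, Celf3 and Tmem163 followed, with ratios of 0.311 (0.200 to 0.492), 0.336 (0.252 to 0.452), 0.348 (0.211 to 0.587) and 0.361 (0.226 to 0.588). In comparison spots these 4 stood at 0.576, 0.420, 0.931 and 0.664, and in members without Hcrt-rich spots at 0.322, 0.326, 0.374 and 0.485. Upward, Sst, the somatostatin precursor, stood at 430.1 against 74.2 CPM (ratio 5.80, 3.93 to 8.93, 7.02 without Hcrt-rich spots and 1.43 in comparison spots), and Trh at 224 against 31.4 CPM (ratio 7.15, 3.96 to 14.4, 9.19 without Hcrt-rich spots and 0.762 in comparison spots). Pdyn stood at 108 against 14.3 CPM, with a ratio of 7.59 (3.20 to 23.6), 4.33 without Hcrt-rich spots and 3.51 in comparison spots. AY036118, Snapc2, Adam9 and Gstp1 had higher ratios than Pdyn, 12.7 (2.21 to 509), 11.7 (2.02 to 467), 10.6 (1.84 to 426) and 10.1 (1.74 to 406), each on 1 UMI in Aged Vehicle.

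Orexin markers were past 2-fold upward in 5 of 7 with enough UMIs (Pdyn, Nptx2, Plagl1, Nek7 and Scg2) and had a median log2 ratio of 1.133, against 0.012 in comparison spots and 0.017 over all genes in members. Without the Hcrt-rich spots, Scg2 and Plagl1 had ratios of 1.22 and 0.910 and were no longer past 2-fold, whereas Pdyn stayed past it. Nek7 and Nptx2 differed less between the spot classes of Aged Ethanol. They stood at 32.8 and 48.8 CPM in its Hcrt-rich spots and at 29.1 and 39.98 CPM in its other members. However, Pdyn, Nek7 and Nptx2 rested on few UMIs in Aged Vehicle members, where 3 UMIs make 8.56 CPM. Where the rise of the list lay among the spot classes was not tested. Glial genes past the fold included the astrocyte genes Gfap (6.53, 2.50 to 24.3) and Serpina3n (4.87, 2.04 to 15.2), 2 of 11 in their list, and the complement genes C4b (5.40, 2.43 to 14.9) and C1qa (2.27, 1.47 to 3.68), 2 of 7. In comparison spots the ratios were 1.22 for Gfap, 1.25 for Serpina3n, 2.25 for C4b and 1.297 for C1qa, and in members without Hcrt-rich spots 5.73, 3.74, 6.09 and 2.12. Gfap, Serpina3n and C4b rested on 4, 5 and 6 UMIs in Aged Vehicle members.

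Aged Ethanol members against Young Ethanol members, both with Hcrt-rich spots, were past 2-fold upward in 14 of 7568 genes (0.185%) and downward in 27 (0.357%). With a mean level of at least 24.8 CPM over the 2 libraries (chosen after seeing the data), 9 of 5874 genes were past it upward and 5 downward. Nts led, at 119 CPM in Aged Ethanol against 29.0 CPM in Young Ethanol, a ratio of 4.10 (3.20 to 5.28), with 3.34 without Hcrt-rich spots and 2.07 in comparison spots. Pomc stood at 102 against 29.3 CPM (3.49, 2.72 to 4.52, 3.20 without Hcrt-rich spots and 1.16 in comparison spots), and Asb4 at 38.7 against 15.4 CPM (2.51, 1.73 to 3.67, 1.87 without Hcrt-rich spots but 0.111 in comparison spots). AY036118 and the glial factor gene Sox9 had ratios of 3.41 and 2.53. Of the 14 upward genes 10 reached 50 UMIs in comparison spots, and the 4 past the fold there too were Nts, AY036118, Bc1 and Gstp1, of which Bc1 and Gstp1 were named after their values were seen.

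Downward between the same libraries, Ghrh stood at 13.4 CPM in Aged Ethanol members against 53.1 CPM in Young Ethanol members (0.252, 0.162 to 0.381), with 0.170 without Hcrt-rich spots but 6.71 in comparison spots. Ramp3, a receptor activity modifying protein, Crhbp, which binds corticotropin releasing hormone, Ptpn3 and Gm34006 had ratios of 0.275, 0.299, 0.309 and 0.349 in members and of 1.19, 1.69, 0.841 and 1.12 in comparison spots. Of the 27 downward genes 19 reached 50 UMIs in comparison spots, and 0 of these were downward past the fold there. Without Hcrt-rich spots, 17 of the 27 stayed past it with enough UMIs. Ghrh and Pomc mark tuberal nuclei beside the lateral hypothalamus. Markers of those nuclei were also past 2-fold upward in 3 of 4 genes in Aged Ethanol over Aged Vehicle members (Fezf1, Pomc and Tac2), with a median log2 ratio of 1.501 in members and -1.317 in comparison spots. Their part in the other ratios was not tested.

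**Figure D5:**
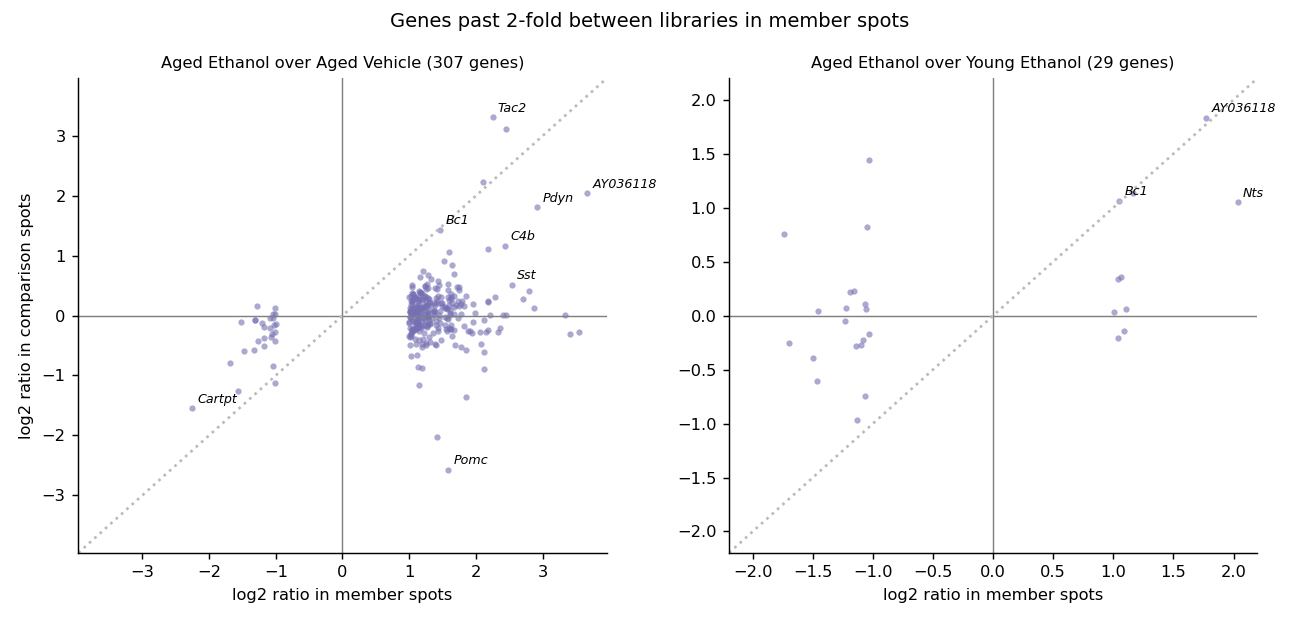
Log2 ratio in comparison spots (vertical axis) against that in member spots (horizontal axis) for genes past 2-fold in members whose UMIs reached 50 in the richer library and also in the comparison spots, Aged Ethanol over Aged Vehicle (left, 307 genes) and Aged Ethanol over Young Ethanol (right, 29 genes). Each point is a gene, and on the dotted line both ratios are equal; few genes are also past 2-fold in comparison spots, 9 upward and 3 downward on the left and 4 upward on the right.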

How the data were processed

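RNA was captured on Visium slides from 4 mouse brain sections, 1 library for each group. Per the submitters' processing notes, the authors used Space Ranger 2.0.0 with mm10, whereas spaceranger 1.3.1 is the version per the file headers. The deposited values were raw UMI counts for 32285 genes in 11064 spots, with no normalization. The letter at the end of each barcode gave the library.

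From these counts, spots with at least 500 UMIs were kept, and members, Hcrt-rich spots and comparison spots were taken by the UMI cutoffs stated with each result. The comparison spots' sum of 5 hypothalamic genes had to reach the 25th percentile of members, 5.345 per 10000 UMIs. UMIs were summed per library and class, and each sum was tested with edgeR 4.0.16 in R 4.3.3 (TMM scaling, filterByExpr, quasi-likelihood test, library as block, Benjamini-Hochberg adjustment over all genes tested); a class needed at least 3 spots in a library, which left out Young Vehicle. The 4 genes of the rule, and the 5 genes that chose the comparison spots, were not tested where they set the classes. A call needed an adjusted p below 0.05 and a 2-fold change. Each fit rests on 1 section per group, so p-values measure the spread between sections of different groups. Ratios between libraries had no test, and pairs with Young Vehicle were not computed. In data simulated from the same means, the fit for members against comparison spots recovered 55.2% of 2-fold and 96.7% of 4-fold changes, that for Hcrt-rich spots 35.1% and 92.9%, and that for members against the rest of the section 45.9% and 83.8%. The simulated spread was a fixed value, not one estimated from these sections. Recovery needed an adjusted p below 0.05 but no 2-fold change, so under the call rule it can only be equal or lower. DESeq2 1.42.0, other scalings, filters and cutoffs were alternatives.

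Named genes were the 10 highest and 10 lowest log2 fold changes past the threshold, with the same direction and at least 10 UMIs in the higher class in every library, the 5 highest and 5 lowest ratios between libraries, and members of the gene lists. The members and lists were chosen with earlier results of these data known. Some genes are not reported here.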

Additional observations from a re-analysis of the deposited data

Results flagged for a closer look

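In the Aged Ethanol section, 12 spots had at least 20 UMIs of Pmch and Hcrt together but were not members because they also had at least 20 UMIs of Avp and Oxt. They entered no comparison, and the other 3 sections had 0 such spots.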

How the results depend on the processing

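Each comparison rests on 1 section per group, positions of spots were not used, and Young Vehicle had 1 member, so age, gavage and level of cutting cannot be told apart. Between groups, no paired analysis was possible because each group has 1 library; spot classes of 1 library were paired by the library block. Leaving out a library from the Hcrt-rich comparison leaves no residual degrees of freedom and gave no value. Against comparison spots, higher genes numbered 78 with DESeq2's Wald test, 116 without the library block, 99 with comparison spots below 20 Pmch and Hcrt UMIs, 7 with the filtered comparison spots (chosen after seeing the data) and 109 to 228 with a library left out; lower genes numbered 184 with DESeq2, 28 with the filtered spots and 241 to 331 with a library left out. Against the filtered spots the log2 changes turned to -0.521 for Pomc, -0.208 for Ghrh and 0.012 for Egr1, and without Young Ethanol Ghrh turned to -0.090 (2.751 without Aged Vehicle). In Hcrt-rich spots DESeq2 called 7 higher and 0 lower genes, and lower genes numbered 40 and 8 at member cutoffs of 10 and 40 UMIs and 10 where Hcrt exceeded Pmch. Against the rest of the section, 414 to 633 genes were higher and 774 to 993 lower with a library left out, and Hdc turned to -0.425 without Aged Vehicle (3.332 without Young Ethanol). For Aged Ethanol over Aged Vehicle, lower genes numbered 45 at a cutoff of 10 UMIs, 50 as a mean over spots and 12 without Hcrt-rich spots, and higher genes 70 without Hcrt-rich spots; for Aged Ethanol over Young Ethanol, lower genes numbered 78 without them. With the minimum on the mean CPM of both libraries, these pairs gave 7 higher and 3 lower, and 9 higher and 5 lower genes. Member shares at cutoffs of 10 and 40 UMIs were 7.419% and 3.217% in Aged Ethanol, 1.628% and 0.6289% in Aged Vehicle, and 7.428% and 4.026% in Young Ethanol, and 6.775% in Aged Ethanol with at least 10 per 10000 UMIs. The cause of these changes was not tested.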

Other observations

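Transmitter genes in members against the rest of their section rose in 7 of 14 and fell in 1. The GABA-synthesis enzyme gene Gad2 stood at 256, 237 and 349.6 CPM in members of Aged Ethanol, Aged Vehicle and Young Ethanol, against 105, 123 and 124 CPM in the rest (log2 1.34, edgeR adjusted p = 8.3e-52). Against comparison spots 3 of 10 transmitter genes were higher and 1 lower, and Gad2 had a log2 change of 0.06 (edgeR adjusted p = 0.69). Against the rest of the section, Gabre (3.57) and Gabrg1 (1.63) of 13 tested GABA-A receptor subunit genes were higher in members. Gabra4 (-1.72) and Gabrd (-2.82) were lower, and the median was 0.17 against -0.031 over all genes. Gabre stood at 18.9, 28.5 and 9.33 CPM in members and at 1.02, 3.57 and 0.996 CPM in the rest. None of 12 tested subunits passed against comparison spots, with a median of -0.13. There Gabre had a log2 change of 0.73 (edgeR adjusted p = 0.092) and Gabrg1 of -0.0005.

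Genes of the unfolded protein response passed in 1 of 16 against comparison spots, Creb3l1 (log2 1.92, edgeR adjusted p = 0.0025), which stood at 12.4, 5.71 and 6.12 CPM in members against 3.00, 4.10 and 0.704 CPM. Creb3l1 no longer passed without Aged Ethanol or without Young Ethanol (log2 1.824 and 1.578). In Hcrt-rich spots against the other members none of 14 passed, with a median of 0.08. In that comparison none of 9 immediate early genes passed either, with a median of 0.12.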
